A study of Mus musculus with 18 samples.

Results

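The comparison described here set brain RNA of mice gavaged with flour of unstored, conventionally grown potatoes (PC) against brain RNA of mice gavaged with water (Ctr). It uses 6 of the 18 arrays of the series, 3 of PC and 3 of Ctr, chosen by their titles and paired by replicate number. All animals were male BALB/cOlaHsd mice, 8 weeks old at the start, gavaged daily for 20 days beside a standard chow diet. The PC mice received 30 mg per day of flour made from tubers with their skin, and the Ctr mice an equivalent volume of water. The series holds 4 more groups, of which only the ADI mice, given 9 pesticides mixed at their acceptable daily intakes, are used below. Each array carried Cy3-labelled RNA of the brain of 1 mouse, described as a separate individual of a group of 12. The whole brain was cut into cubes, so fewer cells of a type and less RNA per cell cannot be told apart in any value below.

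Potato flour is mainly starch, with protein, potassium and phenolic compounds, and the skin of the tuber is the part richest in glycoalkaloids, the bitter defence compounds of the nightshade family. A compound taken by mouth reaches the brain only after the gut, the liver and the barrier formed by brain capillaries. The 51 genes with a name here cover sensory receptors, neuronal secretion and synapses, immune receptors, growth factor signalling, chromatin and cytoskeleton.

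The values are deposited fluorescence intensities of 12439 features. Every array was brought to the same 75th percentile, 983.9. A floor of 16 replaced smaller values before the log2 step. The 75th percentile before scaling was 1025.5 to 1079 on the PC arrays and 838.5 to 1060 on the Ctr arrays. Over features the 6 arrays correlated pairwise at r = 0.97 to 0.98 on the log2 scale, which describes the arrays only, since features are not independent. A symbol is paired with 51 of the features, a list the submitters chose from this series, and all other features are given by their number. Of 28 marker genes listed for 8 brain and other cell types, 7 are among the 51: Vgf, Sh3gl2, Cpne4 and Rbfox2 of the neuronal list, and the sensory receptor genes Olfr1183, Olfr1278 and Vmn1r20. No marker of astrocytes, oligodendrocytes, microglia, endothelium, choroid plexus or erythrocytes has a name here, so the cell makeup of the samples was not checked.

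No feature differed between PC and Ctr past the threshold. In the paired limma fit, 0 of 12439 features (0%) had a Benjamini-Hochberg adjusted p under 0.05, and the smallest adjusted p was 0.928. At an unadjusted p under 0.05 there were 526 features (4.23%), 225 higher in PC (1.81%) and 301 lower (2.42%). The median change over all features was -0.0076 on the log2 scale, and 83.8% of features lay within 1.2-fold of no change. The 95% interval of a feature's log2 change had a median half-width of 0.33, a 1.26-fold range to either side, so smaller differences were not resolved for most features. An exact sign-flip test of a single value over 3 pairs cannot go below p = 0.25 and was therefore not used.

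None of the 51 named genes passed either, by the adjusted p or at an unadjusted p under 0.05. All lay at a scaled level of 256 or above, where 0.451% to 1.94% of features, by range of brightness, had such a p in the same fit. With the variance allowed to follow brightness, 5 of the 51 had an unadjusted p under 0.05, beside 567 of all features (4.56%). None of the 5 passed (limma with trend and robust, smallest adjusted p 0.937). Ppp1r18, Tulp4 and Adgb were among the 5. In the main fit with quantile normalization their changes were smaller, at -0.012, -0.066 and -0.044. The median log2 change of the 51 was 0.035, and 48 of the 51 lay within 1.2-fold of no change in the mean of the 3 pairs. 10 genes were higher in PC in all 3 pairs, 6 were lower in all 3, and 35 had pairs on both sides. These are 19.6% and 11.8% of the list. The groups did not overlap for 3 genes, all higher in PC, against 6.24% of all features (2.54% higher and 3.70% lower). Over all features 11.4% were higher in PC in all 3 pairs and 14.2% lower. The submitters picked the list on arrays of the same series, so these counts cannot serve as independent evidence for either direction. The median of the list was 0.062 in replicate 1, 0.00082 in replicate 2 and 0.015 in replicate 3 on the log2 scale, and it was -0.0020 without replicate 1.

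**Figure D1:**
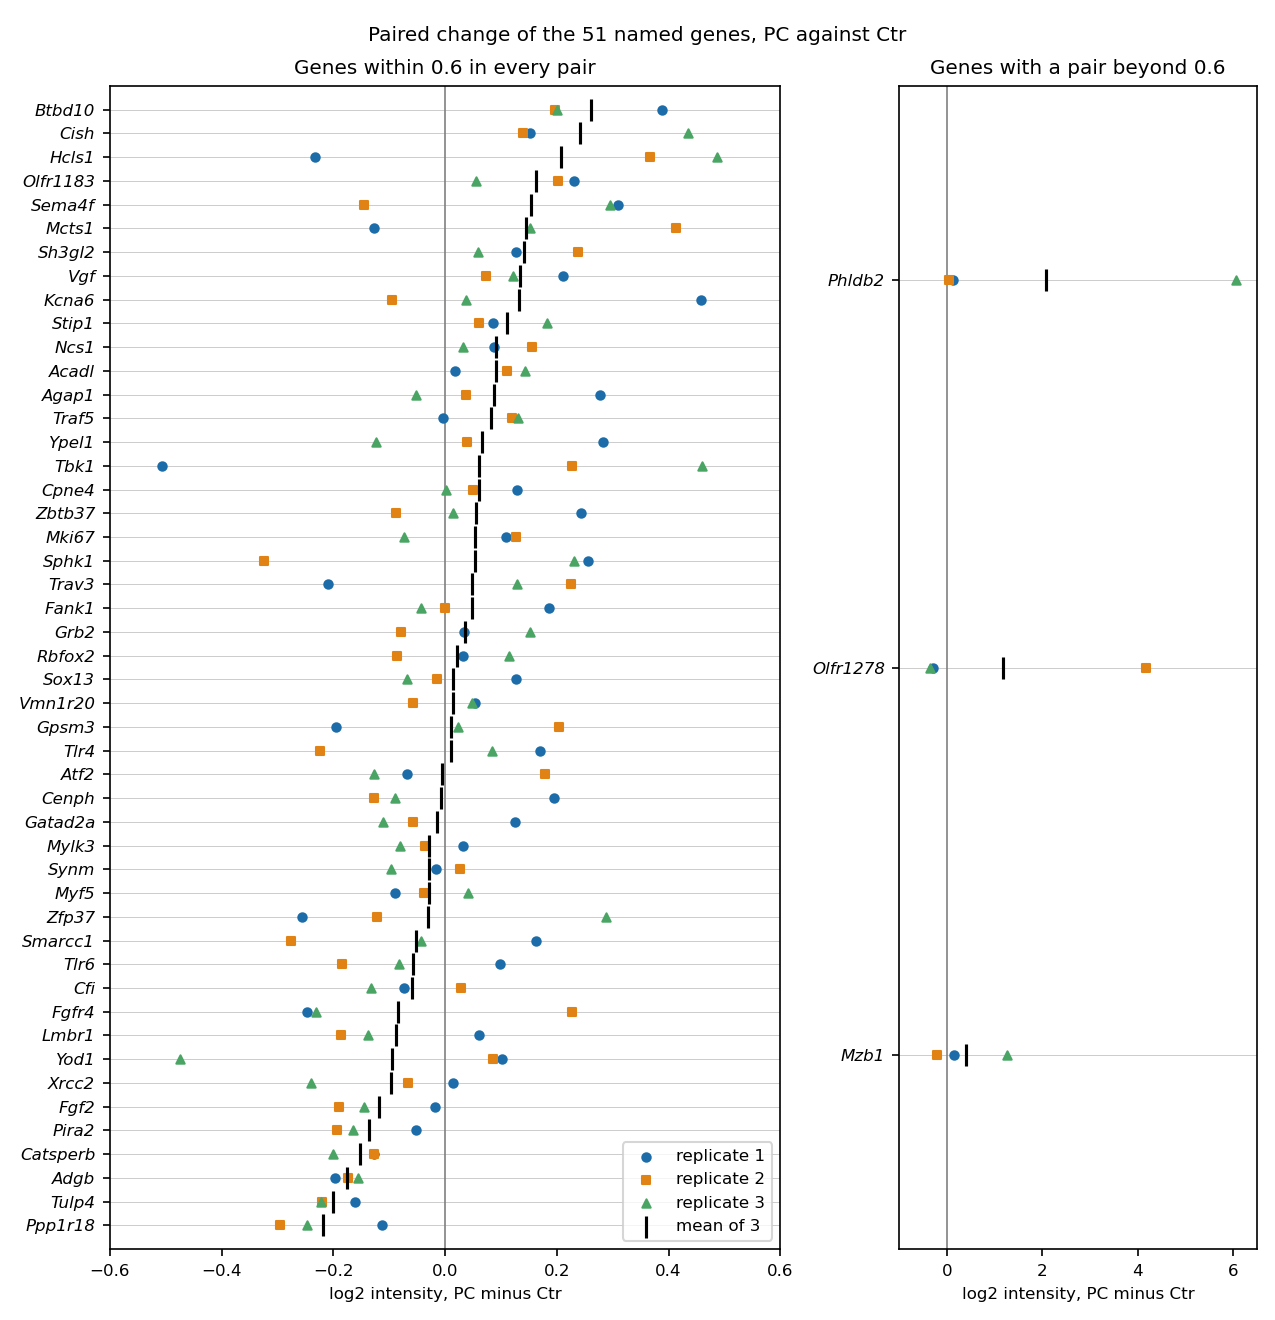
Differences of log2 scaled intensity, PC minus Ctr, of the 51 named genes on the horizontal axis, with 1 row per gene, 1 symbol per replicate number and a bar at the mean of the 3. The left panel holds the 48 genes with every pair within 0.6, and the right panel, on a wider axis, shows Phldb2, Olfr1278 and Mzb1, whose means rest on a single far pair.

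The largest mean change of the list was that of Phldb2, which was grouped here with the growth factor and signalling genes. This gene encodes a pleckstrin homology domain protein that anchors microtubules at the cell cortex. Its scaled intensity was 1189, 932.6 and 1062 on PC replicates 1 to 3, against 1093 and 907.0 on Ctr replicates 1 and 2 and a value set to the floor of 16 on Ctr replicate 3, where the deposited intensity was 4. The PC arrays and the other Ctr arrays thus spanned one common range, and 1 Ctr array stood alone far below it. The paired log2 differences were 0.12, 0.040 and 6.05, and that of replicate 3 is set by the floor. Their SD was 3.45. Their mean of 2.07 ± 1.38 (moderated SE of the limma fit, n = 3 pairs) did not pass (limma, adjusted p = 0.939). With the lone value left out, an alternative chosen after seeing the data, the log2 change was 0.081.

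Btbd10, a BTB domain protein that supports Akt signalling, had the smallest unadjusted p of the list, 0.0548. It had 542.6, 428.9 and 483.3 on the PC arrays, against 414.6, 374.3 and 420.5 on the Ctr arrays. Every PC value was above every Ctr value. The log2 change was 0.26 with a 95% interval from -0.0085 to 0.53 (limma, adjusted p = 0.939). Fgf2, a fibroblast growth factor made by glia and neurons, had 754.4, 1120 and 672.9 in PC against 763.6, 1278 and 744.4 in Ctr, with a log2 change of -0.12 ± 0.096 (SE). Each PC array was slightly below its partner, while the mice of replicate 2 were above all others in both groups. The remaining genes of this set were Fgfr4, a receptor for such factors, Grb2, the adaptor between receptor tyrosine kinases and Ras, Sphk1, which makes sphingosine-1-phosphate, and Agap1, which acts on Arf GTPases. Their log2 changes were -0.084, 0.035, 0.054 and 0.088, with pairs on both sides of 0 for all 4.

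Of the 6 genes of neuronal secretion, synapse and guidance, 4 were above water in every pair. This stands beside 19.6% of the 51 genes and 11.4% of all features. The list was picked on arrays of this series, so the count is no independent evidence of a direction. The median log2 change of the 6 was 0.13. 0 of the 6 passed. Rbfox2, listed with the neuronal markers but grouped below with the splicing genes, had replicate 2 below water. Vgf, the precursor of several secreted neuropeptides and a responder to neurotrophins, had 417.2, 461.5 and 415.8 in PC, against 360.3, 438.8 and 382.4 in Ctr. The PC values lay above their partners by 0.21, 0.073 and 0.12 on the log2 scale, and the groups overlapped. The 95% interval of its change, -0.12 to 0.39, corresponds to 0.921-fold to 1.31-fold. Sh3gl2, endophilin A1 of synaptic vesicle recycling, had 563.9, 647.6 and 577.2 in PC against 516.2, 549.1 and 554.1 in Ctr. Its groups did not overlap, and its log2 change was 0.14 ± 0.096 (SE). Ncs1, a calcium sensor of nerve terminals, had 1078, 1314 and 1037 in PC against 1014, 1180 and 1015 in Ctr. Cpne4, a copine that binds membranes when calcium rises, had 765.6, 1277 and 844.4 in PC against 700.4, 1233 and 843.7 in Ctr. In replicate 3 its values were nearly equal, and the mean log2 change over the pairs was 0.060. Leaving out 1 replicate number moved Cpne4 to 0.026 (without replicate 1), and Ncs1 to 0.059 and Sh3gl2 to 0.093 (both without replicate 2), where their means over the 3 pairs were 0.091 and 0.14. Kcna6, a voltage-gated potassium channel subunit, and Sema4f, a membrane semaphorin of axon guidance, had log2 changes of 0.13 and 0.15, each with replicate 2 below water.

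Among the chemosensory receptors, Olfr1278 had the second largest mean change of the list, and it too rested on 1 array. It had 782.3, 1309 and 853.5 in PC, against 957.9, 72.8 and 1100 in Ctr. Ctr replicate 2, with a deposited intensity of 62, was alone far below, and in replicates 1 and 3 the PC array was the lower of the pair. The log2 change was 1.17 ± 1.04 (SE), and it was -0.33 without replicate 2. Olfr1183 had 797.1, 1212 and 865.3 in PC against 678.9, 1054 and 832.6 in Ctr, above water in all 3 pairs with a log2 change of 0.16 ± 0.096 (SE). Vmn1r20, a vomeronasal receptor, had 891.0, 1419 and 808.8 in PC against 858.5, 1477 and 782.5 in Ctr. Its log2 change of 0.014 had a 95% interval from -0.24 to 0.27.

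The immune genes numbered 11, of which 1 was above and 1 below water in all 3 pairs, with a median log2 change of 0.048. These counts stand beside 11.4% of all features above and 14.2% below in all 3 pairs. Cish, a feedback inhibitor of cytokine signalling through JAK and STAT proteins, had 869.6, 905.7 and 879.9 in PC, against 782.8, 822.5 and 650.7 in Ctr. Every PC value exceeded every Ctr value, and the PC mice spread little, with an SD of 18.6 against 90.0 in Ctr. The log2 change was 0.24 with a 95% interval from -0.062 to 0.55 (limma, adjusted p = 0.939), and it was 0.15 without replicate 3. Mzb1, an endoplasmic reticulum chaperone of B cells, had 1497, 1291 and 1495 in PC against 1348, 1488 and 623.7 in Ctr. Ctr replicate 3 was the lowest of its 6 arrays, and the log2 change of 0.40 ± 0.32 (SE) became -0.026 without replicate 3. Pira2, an activating immunoglobulin-like receptor of myeloid cells, had 465.5, 689.8 and 451.4 in PC against 482.3, 788.5 and 505.9 in Ctr, a log2 change of -0.14 ± 0.094 (SE). The Toll-like receptor genes Tlr4 and Tlr6 had log2 changes of 0.010 and -0.057. Traf5, an adaptor of TNF receptors, had 0.082, and Tbk1, a kinase of the interferon response, had 0.060 with pairs between -0.51 and 0.46. Hcls1, an actin regulator of blood cells, had 0.21 with replicate 1 below water. The complement protease Cfi, the T cell receptor segment Trav3 and the G protein modulator Gpsm3 had -0.059, 0.048 and 0.010.

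The 11 genes of chromatin, transcription, splicing and cell division lay within 1.2-fold of water. All 11 had pairs on both sides of 0, their mean log2 changes lay between -0.098 and 0.056, and the median was -0.0067. Of all features, 11.4% were above water in all 3 pairs and 14.2% below. Mki67, the proliferation marker Ki-67, had a log2 change of 0.054, Atf2, a stress-responsive transcription factor, -0.0057, and the chromatin remodelling subunits Smarcc1 and Gatad2a had -0.052 and -0.014. The DNA repair gene Xrcc2, the centromere gene Cenph and the transcription factor genes Zbtb37, Sox13 and Myf5 had -0.098, -0.0067, 0.056, 0.015 and -0.029. Rbfox2, a regulator of alternative splicing, had 972.7, 1151 and 980.2 in PC against 951.1, 1221 and 905.0 in Ctr. The groups overlapped and the log2 change was 0.021.

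Zfp37, a zinc finger protein best known from male germ cells and neurons, was the gene of that set whose arrays spread most. It had 679.2, 843.3 and 2047 in PC, against 811.1, 917.6 and 1676 in Ctr. The mice of replicate 3 were high in both groups, and PC was above water only there. Its log2 change was -0.030, with a 95% interval from -0.42 to 0.36. The geometric mean of replicate 3 was 1852, against 742.2 in replicate 1 and 879.7 in replicate 2, a 2.50-fold span between pairs.

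Ppp1r18, a regulatory subunit of protein phosphatase 1 at actin filaments, Tulp4, a tubby-like protein, and Adgb, androglobin of the sperm tail, showed the opposite pattern. Ppp1r18 had 50082, 44361 and 24630 in PC against 54135, 54450 and 29218 in Ctr. Tulp4 had 50420, 48033 and 25458 in PC against 56357, 55980 and 29697 in Ctr, and Adgb had 50112, 48800 and 27515 in PC against 57469, 55018 and 30636 in Ctr. Replicate 3 was the low one of both groups for all 3 genes, and within each replicate number PC was below water. Their log2 changes were -0.22 ± 0.096, -0.20 ± 0.090 and -0.18 ± 0.089 (SE), and none passed (limma, adjusted p = 0.939 for each).

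These 3 genes lie among the brightest features, and their differences depended on the scaling. Among 135 unnamed features with a geometric mean level of 16384 or more, 110 were lower in PC, 52 of them in all 3 pairs, and the median log2 change was -0.063. Of all features, 14.2% were lower in all 3 pairs. With quantile normalization the changes of Ppp1r18, Tulp4 and Adgb were -0.012, -0.066 and -0.044. With no scaling they were -0.019, -0.0019 and 0.024, where the median of all features moved to 0.19.

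The other cytoskeletal, protein turnover and metabolic genes showed 2 members above water in all 3 pairs, beside 11.4% of all features. Stip1, the co-chaperone that links Hsp70 and Hsp90, had 2691, 3169 and 2480 in PC against 2534, 3037 and 2185 in Ctr. Its log2 change was 0.11 ± 0.092 (SE), and the groups overlapped. Acadl, the long-chain acyl-CoA dehydrogenase of fatty acid oxidation, had a log2 change of 0.091. Synm, an intermediate filament protein, Mylk3, the cardiac myosin light chain kinase, and Yod1, a deubiquitinase, had -0.028, -0.028 and -0.096, each with pairs on both sides. Mcts1, which takes part in translation restart, had 0.15 with pairs between -0.13 and 0.41. Of the germ cell genes, Catsperb, an auxiliary subunit of the sperm calcium channel, had 2064, 2968 and 1792 in PC against 2255, 3242 and 2060 in Ctr. It was below water in every pair, with a log2 change of -0.15 ± 0.090 (SE), and the groups overlapped. Fank1, expressed in spermatids, had 0.048 with pairs on both sides. Ypel1, which the submitters class under the nervous system, had 0.066, also with pairs on both sides.

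**Figure D2:**
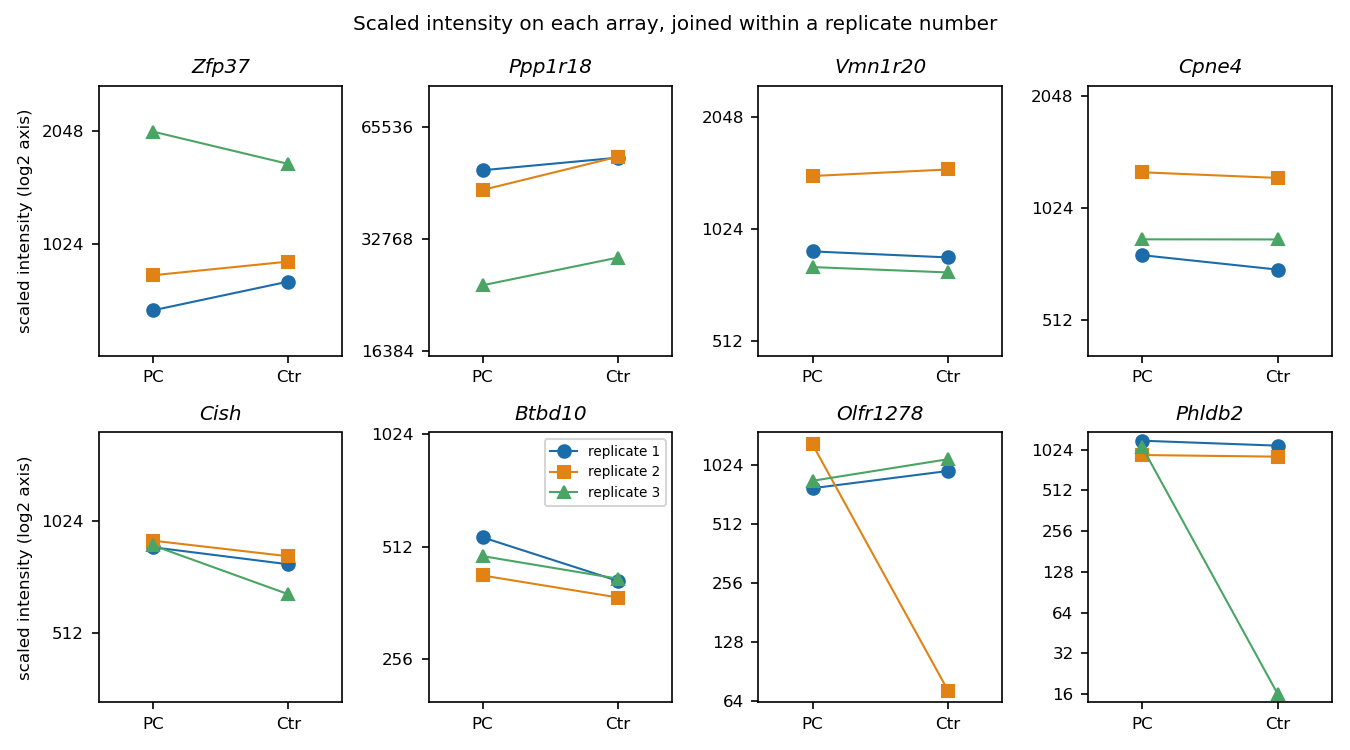
Scaled intensity on each array for 8 named genes, PC left of Ctr in each panel, on a log2 axis; a line joins the PC and Ctr arrays of 1 replicate number. Replicate 3 stands apart in both groups for Zfp37 and Ppp1r18 and replicate 2 for Vmn1r20 and Cpne4, whereas a single Ctr array stands apart for Olfr1278 and Phldb2.

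Differences between replicate numbers were larger than those between PC and Ctr. In the same fit, 1778 features (14.3%) had an unadjusted p under 0.05 for a difference between the 3 replicate numbers, against 526 (4.23%) for PC against Ctr, and 0 features (0%) passed adjustment (limma F-test, smallest adjusted p 0.242). Over all features the mean square between replicate numbers was 0.141, against 0.0834 for the residual, while that of PC against Ctr was 0.0784, at the level of the residual. A mean square is the variation of log2 values that a term takes up per degree of freedom. Among the 51 genes, 13 had an unadjusted p under 0.05 between replicate numbers and 0 for PC against Ctr.

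Some of the genes ran with 1 replicate number. A span between pairs of at least 1.5-fold was seen for 14 of the 51 (27.5%), against 18.1% of all features. Phldb2 and Olfr1278 are among the 14 through a lone value. Replicate 2 was the highest in both groups for Vmn1r20, Cpne4, Fgf2, Lmbr1, Catsperb, Pira2, Gatad2a and Olfr1183, with spans between pairs of 1.54-fold to 1.82-fold. Lmbr1, a membrane protein whose gene holds a limb enhancer, had a log2 change of -0.088, with 1 pair above and 2 below water. The geometric means of Vmn1r20 were 1448 in replicate 2, against 874.6 in replicate 1 and 795.5 in replicate 3. Those of Cpne4 were 1255 in replicate 2, against 732.2 and 844.1 in replicates 1 and 3. The ADI arrays, which the paired fit did not use, had Vmn1r20 at 959.3, 1733 and 791.8 and Zfp37 at 700.1, 786.1 and 1801 in replicates 1 to 3. For Vmn1r20 and Zfp37 the same replicate numbers were thus high in the ADI group as well. Ppp1r18 and Adgb were again lowest in replicate 3 of ADI, at 35830 and 36149. Tulp4 was not, with 35183, 49259 and 35542 in ADI replicates 1 to 3. What the replicate numbers stand for (a litter, a day or an array slide) is not given in the labels, and their part in the spread was not tested further.

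**Figure D3:**
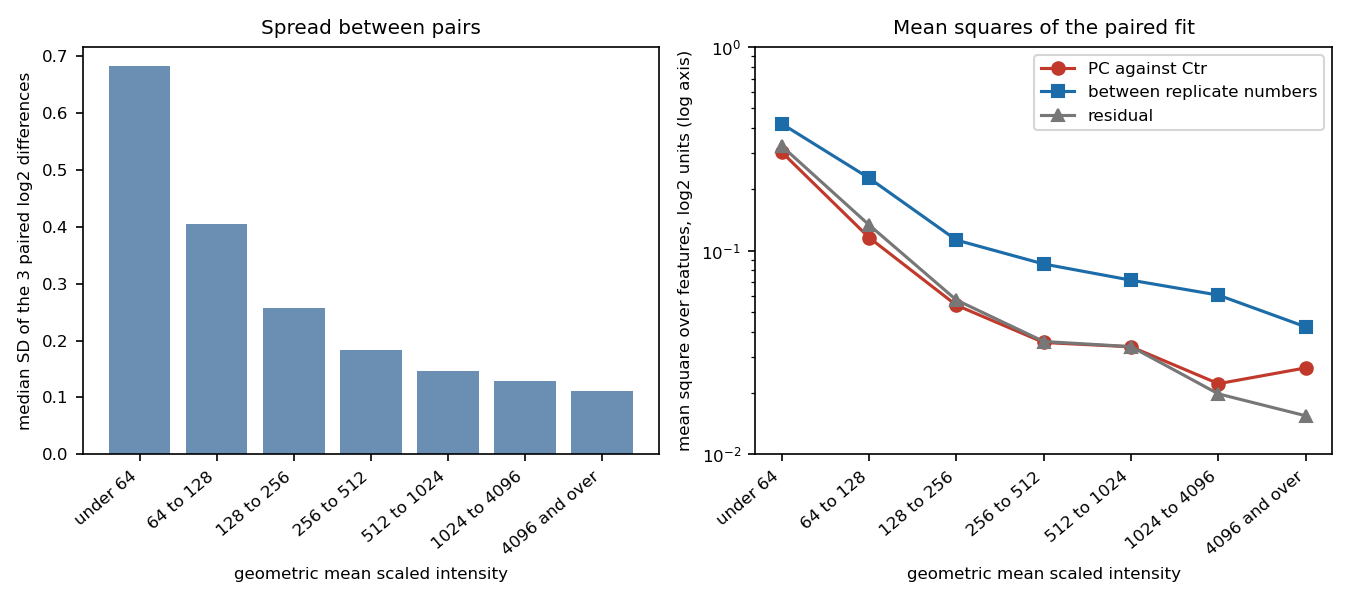
Left, bars give the median SD of the 3 paired log2 differences for features in 7 ranges of geometric mean scaled intensity. Right, points give the mean squares over features, on a log axis, for PC against Ctr, between replicate numbers and for the residual; that between replicate numbers is the highest in every range, and that of PC against Ctr runs close to the residual up to 4096 and above it in the brightest range.

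Most features with large changes were dim or rested on a lone value. A mean change of at least 2-fold in either direction was seen for 46 features (0.370%), and 26 of these lay to the same side in all 3 pairs, 14 higher in PC (0.113%) and 12 lower (0.0965%). Of those 26, 24 had a geometric mean level under 128, and their median level was 41.3, against 318.7 over all features. With a floor of 64 in place of 16, the count at this size was 1. Of the 20 features at 2-fold without agreement of the pairs, 13 held a single value more than 4-fold below all 5 other arrays. Such lone low values numbered 5 on the PC arrays and 18 on the Ctr arrays, 8 of them on Ctr replicate 2 and 9 on Ctr replicate 3. Ctr replicate 2 holds that of Olfr1278, and Ctr replicate 3 that of Phldb2.

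**Figure D4:**
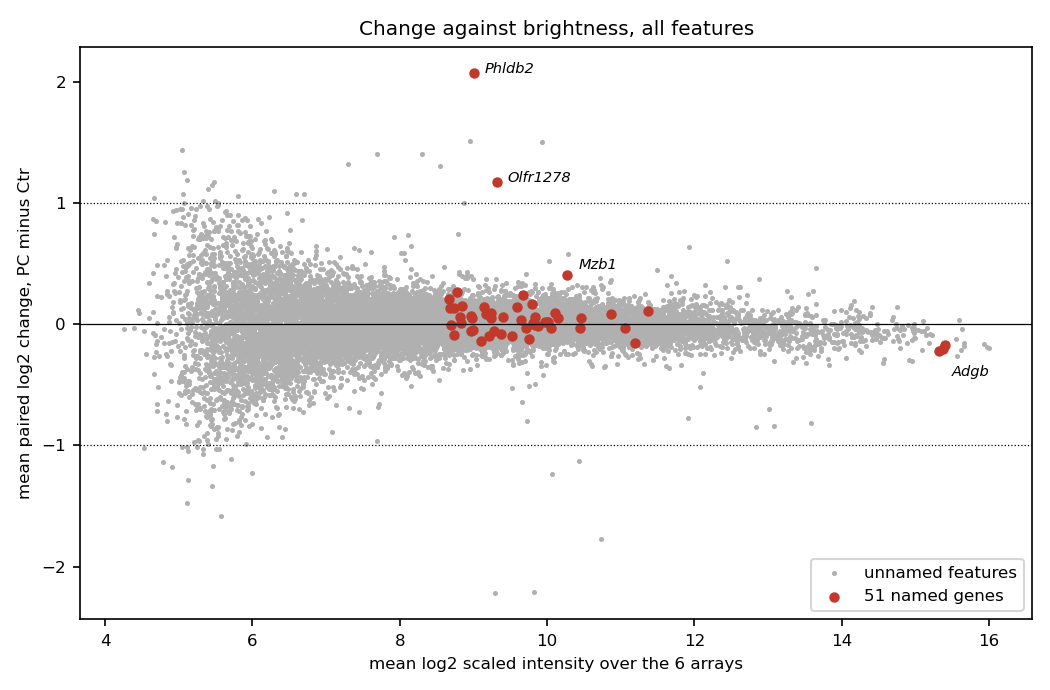
Mean paired log2 change, PC minus Ctr, against the mean log2 scaled intensity over the 6 arrays, for all 12439 features (grey) and the 51 named genes (red); dotted lines mark 2-fold. Changes fan out toward the dim end, and the named genes lie near 0 apart from Phldb2 at 2.07 and Olfr1278 at 1.17.

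The spread fell with brightness. The median SD of the 3 paired log2 differences was 0.682 for the 1348 features with a level under 64, 0.258 between 128 and 256, and 0.129 between 1024 and 4096. The share of features at an unadjusted p under 0.05 was 13.6% under 64 and 0.451% between 1024 and 4096. Both shares are from the main limma fit, in which the variance did not follow brightness. Under 64 the mean square of PC against Ctr was 0.305, against 0.327 for the residual. Between 1024 and 4096 these were 0.0222 and 0.0198. All 51 named genes lay at 256 or above, where the SD was 0.184 or less in the median.

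A mean change of at least 1.5-fold, with all 3 pairs on that side of water but not each at that size, was seen for 233 features (1.87%). The unnamed ones among them with the smallest p, 5 in each direction, all had scaled intensities under 100. Feature 6987 had 65.0, 50.8 and 48.3 in PC, against 27.1, a value at the floor of 16 and 18.6 in Ctr. Its log2 change was 1.44 ± 0.12 (SE), with the smallest unadjusted p of the fit, 0.000232, and it did not pass (limma, adjusted p = 0.928). With the variance allowed to follow brightness, its unadjusted p was 0.0141 (limma with trend and robust). Feature 11061 had 71.5, 99.8 and 73.9 in PC against 39.5, 42.2 and 35.3 in Ctr. Both features had groups apart, and their ADI arrays were as high as PC for feature 6987, at 56.0, 54.8 and 60.5, and mixed for feature 11061, at 40.3, 99.6 and 81.8.

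In the other direction, feature 16821 had 45.5, 45.1 and 38.3 in PC, against 90.4, 84.5 and 80.8 in Ctr, a log2 change of -0.99 ± 0.095 (SE). Feature 23445 had 32.5, 26.9 and 23.7 in PC, against 67.8, 85.7 and 57.5 in Ctr, a log2 change of -1.34 ± 0.15 (SE). All PC arrays were below all Ctr arrays for both. The size of all 10 changes depended on the floor: with a floor of 64 they lay between -0.41 and 0.34. Their unadjusted p depended on how the variance was modelled. With the variance following brightness it lay between 0.0077 and 0.157 (limma with trend and robust). Features 5947, 23529 and 2321 had log2 changes of 0.96, 1.02 and 0.85, with Ctr replicate 3 of feature 5947 and Ctr replicates 1 and 3 of feature 2321 set to the floor of 16, and features 38711, 33566 and 35730 had -0.85, -0.92 and -0.79, each with an adjusted p of 0.928 by limma.

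PC was also set against ADI, the pesticide mixture, which asks whether the flour and the mixture differ from each other. Both groups were compared with the same water mice elsewhere in the series, so only their direct difference was tested, on the 9 arrays of PC, ADI and Ctr with the replicate number as a block. 0 of 12439 features (0%) passed, with 0.298 as the smallest adjusted p by limma. An unadjusted p under 0.05 was seen for 545 features (4.38%), none of them a named gene. Vgf had a PC minus ADI change of 0.14 with a 95% interval from -0.092 to 0.37, Cish of -0.16 ± 0.11 (SE) and Phldb2 of 0.12. Feature 28575 had 26.9, a value at the floor of 16 and 21.0 in PC, against 63.8, 61.8 and 60.5 in ADI, with the smallest unadjusted p of that comparison, 6.36e-05. All 3 PC arrays lay below all 3 ADI arrays, and the log2 change of -1.57 ± 0.17 (SE) did not pass (limma, adjusted p = 0.298). In Ctr it had 64.4, 61.0 and 49.2.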

How the data were processed

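The deposited intensity values of 18 arrays are linear and, from the values themselves, not scaled between arrays. The submitters' processing notes name Agilent Feature Extraction. Which version was run, how background was treated, how the features were chosen and which genome build applies are points not given in the sources used here. The authors also deposited log2 fold changes of 51 genes, which were not used; only the feature numbers, symbols and functional classes of that table were. Of the 51 accessions 46 matched the RefSeq table of assembly GRCm38.p6. No detection or saturation flags come with the values. Precision is limited by the number of arrays.

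PC against Ctr was fitted by lmFit and eBayes of limma 3.58.1 (R 4.3.3) on the 6 arrays with the replicate number as a block, on log2 values scaled to a common 75th percentile with a floor of 16. The Benjamini-Hochberg adjustment ran over the whole table, with a threshold of 0.05. A fold change is the mean of the paired log2 differences, and levels are scaled intensities. Each SE is the moderated SE of its limma fit, not that of the paired differences alone. The labels do not say that equal numbers share a source. The pairing by number was part of the comparison as it was set up. Deviations of same-numbered PC and Ctr arrays from their group means correlated at r = 0.16, 0.30 and 0.27. Those of differently numbered arrays correlated at -0.23 to -0.018. Deviations within a group cancel out for each feature, so positive values for equal numbers force negative ones elsewhere. The contrast between them is thus partly built in and is no test of the pairing. Simulated data served to test the script. Among genes on one side of water in all 3 pairs, the 8 highest and all 6 lower ones were named. Also named were those with a 2-fold mean change, the 3 with the widest spread, marker genes, and Zfp37, Ppp1r18, Tulp4 and Adgb. Other genes of the 51 are given by their mean change, for some with the pairs, and without array values. For unnamed features, the 5 smallest p in each direction were taken among those with at least a 1.5-fold change on one side in all 3 pairs. Gene sets follow textbook roles. The members and lists were chosen with earlier results of these data known. Mice are separate individuals, per the labels.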

Additional observations from a re-analysis of the deposited data

How the results depend on the processing

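The count of 0 features past the adjusted threshold held for PC against Ctr and for PC against ADI under every alternative run, with smallest adjusted p values of 0.143 to 1.00 for the first and 0.127 to 0.990 for the second. With no replicate block, 321 features had an unadjusted p under 0.05 in PC against Ctr, against 526 with it, and leaving out 1 replicate number gave 502 to 725. With no scaling between arrays the count was 1159, the median of all features moved to 0.19 and that of the 51 genes to 0.23. Leaving out 1 replicate number moved the median of the 51 genes between -0.0020 (without replicate 1) and 0.051. The 26 features at 2-fold to one side in every pair became 56 with no scaling, 3 without dim features, 1 with a floor of 64, 1 with 50 added in place of the floor, and 102 to 128 over the 2 pairs left without 1 replicate number.

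Among named genes the sign changed with no scaling for Adgb (0.024), Catsperb (0.048), Pira2 (0.063), Fgf2 (0.081) and Zfp37 (0.17), each below the shift of all features. Leaving out 1 replicate number moved Zfp37 between -0.19 and 0.083, Vmn1r20 between -0.0052 and 0.051, Rbfox2 between -0.026 and 0.074, Mzb1 between -0.026 and 0.71 and Olfr1278 between -0.33 and 1.94. Phldb2 kept its sign, between 0.081 and 3.09. Without lone values Olfr1278 had -0.33. Precision was lowest for dim features, whose paired differences had the widest spread.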

Other observations

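When the variance was allowed to follow brightness (limma with trend and robust), bright features led in place of dim ones, still with 0 past the threshold. The 3 with the smallest p in that fit, named here after their values were seen, carry no gene name. Feature 25702 had 2485, 4279 and 2400 in PC, against 5503, 6553 and 3529 in Ctr. It was lower in PC in all 3 pairs, by a log2 change of -0.77 ± 0.11 (SE of that fit, adjusted p = 0.143), and PC replicate 2 lay above Ctr replicate 3. Its ADI arrays had 3226, 4252 and 5623.

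Feature 44463 had 4429, 4598 and 5665 in PC, against 3637, 2980 and 2846 in Ctr, a log2 change of 0.63 ± 0.12 (SE of that fit). Feature 44562 had 3642, 3683 and 4027 in PC, against 3202, 2760 and 2652 in Ctr, a log2 change of 0.40 ± 0.089 (SE of that fit). All PC arrays were above all Ctr arrays for both, and both had an adjusted p of 0.937 by limma. In that fit 567 of all features (4.56%) had an unadjusted p under 0.05. Among the 51 genes there were 5, the smallest p being 0.00482 for Ppp1r18, with an adjusted p of 0.937 in that fit. The others were Tulp4, Adgb, Cish and Btbd10. In the main fit with quantile normalization, the changes of Ppp1r18, Tulp4 and Adgb were -0.012, -0.066 and -0.044.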
